A study of Mus musculus with 3 samples.

Results

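The chemokine and chemokine receptor genes described here are those of the deposited gene list with a symbol of Ccl, Cxcl, Ccr or Cxcr and a number, together with Cx3cl1, Cx3cr1 and Xcr1, and with at least 10 unique molecular identifiers (UMIs) over the 3 libraries. Of 27998 genes, 61 entries with 55 distinct symbols had such a name, and 38 passed the minimum, 27 ligands (17 CC, 9 CXC and Cx3cl1) and 11 receptors. Of the 23 that did not pass, 16 had no UMI and 7 had 1 to 9. The member with the fewest UMIs was Cxcl5 with 10, and the highest count below the minimum was 5.

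Chemokines are small secreted proteins that draw leukocytes and other cells along a gradient, and each is read by a membrane-spanning receptor that couples to inhibitory G proteins. They are named by the spacing of their first cysteines (CC, CXC, CX3C and XC), and fall into inflammatory ligands, which macrophages and stressed stromal cells make after injury, and homeostatic ligands such as CXCL12, CCL19 and CCL21, which position cells in tissue at rest. In the heart, CCL2 and CCL7 acting on CCR2 bring monocytes out of the bone marrow and into the ventricle, CXCL1 and CXCL2 acting on CXCR2 bring neutrophils, and CXCL12 acts on CXCR4 of leukocytes and endothelium.

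The non-cardiomyocytes came from ventricles of male wild-type C57BL/6J JCL mice that were 8 weeks old at transverse aortic constriction (TAC), the ligation of the aortic arch that loads the left ventricle with pressure. The phases were healthy (0 weeks, the Control without TAC), adaptive hypertrophy (2 weeks after TAC) and heart failure (12 weeks after TAC), and no other allele or agent is named for any of them. Each phase is 1 droplet library, so phase and library cannot be told apart, no test between phases was possible, and the number of mice behind a library is not given in the sources used here. The atria were removed, and the tissue was digested warm with collagenase and spun through Percoll before capture.

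Cells with at least 200 detected genes were kept, 3892, 2231 and 792 cells at 0, 2 and 12 weeks with 12287823, 4465929 and 1712728 UMIs. The median cell held 2589, 1495 and 1434 UMIs. The libraries shared 5 barcodes between 0 and 2 weeks, 1 between 0 and 12 weeks and 3 between 2 and 12 weeks. Cells were gated by the summed log level of 8 markers per class, with no chemokine among them, into endothelial cells (EC, 1131, 1774 and 311 cells), fibroblasts (FB, 1240, 97 and 196), mural cells (322, 57 and 36), macrophages (827, 102 and 54), monocytes (27, 43 and 9) and B cells (32, 0 and 78). Further gates took up the rarer T or NK cells, neutrophils, dendritic cells and neural cells, and 241, 111 and 60 cells stayed ungated. A gate is a range of marker levels and not a proven type: 75, 12 and 7 gated cells lay close to the margin (a marker sum of 1.5 to 1.75 times the next) and 102, 18 and 9 just missed it. The defining markers were present, 8 of 8 with UMIs in EC, FB, mural and macrophage gates of every library, with medians of 12, 10 and 8 marker UMIs per EC, 57, 25 and 45 per FB and 46, 21 and 14 per macrophage, and the markers of each of these 3 classes had a median of 0 UMIs per cell in the gates of the other 2, except FB markers in ECs, at 1, 0 and 1.

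Levels are UMIs of a gene per 1000000 UMIs (CPM), summed over the cells of a gate in 1 library. The range in parentheses after a level or ratio is its exact 95% interval, which covers counting error only and not the spread between mice. A gene was called between phases, or between the highest and next gate of a library, when the ratio with 10 CPM added to both levels was at least 2 and the gene had at least 20 UMIs. The level that 3 UMIs would give, used as the floor for a count of 0, was 0.883, 0.879 and 6.01 CPM in ECs, 0.734, 11.5 and 4.77 CPM in FBs and 1.28, 14.4 and 27.7 CPM in macrophages, so a level in the small macrophage gate at 12 weeks rests on far fewer molecules than one in the healthy gate. Kept cells held 60054, 12279 and 5997 UMIs of the 38 genes, and the 5 most counted (Cxcl2, Cxcl12, Cxcl1, Ccl2 and Ccl4) made up 64.4% of the 78330.

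The genes lie in a few clusters of the mouse genome (GRCm38): 12 of the 38 are on chromosome 11, 7 on chromosome 5, 7 on chromosome 9, 4 on chromosome 8 and 3 on chromosome 4. On chromosome 11, Ccl2 (chr11:82035571-82037453), Ccl7 (chr11:82045712-82047525), Ccl11 (chr11:82057823-82062955), Ccl12 (chr11:82101845-82103400) and Ccl8 (chr11:82115185-82116799) stand in a row, and Ccl3 (chr11:83647844-83649355) and Ccl4 (chr11:83662584-83664683) form a second group. On chromosome 5, Cxcl1 (chr5:90891241-90893115) and Cxcl2 (chr5:90903871-90905938) are neighbours, and Cxcl9 (chr5:92321347-92328079) and Cxcl10 (chr5:92346638-92348889) form another pair. Cxcl12 stands alone on chromosome 6 (chr6:117168535-117181367).

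The 250 bases before the start of Cxcl1, Cxcl2 and Cxcl10 are shown because Cxcl1 and Cxcl2 are neighbours that stood highest in different gates, and because Cxcl10 differed in direction between gates at 12 weeks. They are RefSeq sequences of GRCm38.p6, written on the strand of the gene, and the start is that of RefSeq. For Cxcl1 and Cxcl2 the RefSeq start lies downstream of the gene start given above, so the last bases shown fall inside those spans. Distances before the start are counted from the RefSeq start and would differ with the other one. Capitals mark letters that match, on either strand, GGG and TTCC with any 3 bases between them, a pattern of sites for NF-kB, the main transcription factor of inflammatory signalling, or GAAA and GAAA with any 2 bases between them, the core of the interferon-stimulated response element (ISRE).
Cxcl1, chr5:90890995-90891244, plus strand: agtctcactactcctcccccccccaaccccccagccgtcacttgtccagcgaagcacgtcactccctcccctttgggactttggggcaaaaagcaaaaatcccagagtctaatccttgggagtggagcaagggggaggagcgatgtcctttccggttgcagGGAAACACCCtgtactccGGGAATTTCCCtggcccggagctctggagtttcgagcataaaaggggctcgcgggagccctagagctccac
Cxcl2, chr5:90903649-90903898, plus strand: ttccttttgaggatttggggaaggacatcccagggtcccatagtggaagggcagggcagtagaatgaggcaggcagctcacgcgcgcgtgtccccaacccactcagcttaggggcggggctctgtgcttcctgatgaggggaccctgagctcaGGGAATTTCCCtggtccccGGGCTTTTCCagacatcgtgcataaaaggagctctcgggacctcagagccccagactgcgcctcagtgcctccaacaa
Cxcl10, chr5:92348890-92349139, minus strand: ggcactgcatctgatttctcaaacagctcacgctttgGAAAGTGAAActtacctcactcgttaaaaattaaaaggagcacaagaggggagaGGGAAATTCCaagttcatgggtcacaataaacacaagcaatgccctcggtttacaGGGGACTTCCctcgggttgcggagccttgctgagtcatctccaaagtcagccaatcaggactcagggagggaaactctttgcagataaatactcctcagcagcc

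Cxcl1 and Cxcl2 both carried GGGAATTTCC, which reads as a match on both strands in overlapping positions, 71 to 62 and 97 to 88 bases before the start. Cxcl10 held GGGAAATTCC and GGGGACTTCC, 159 to 150 and 104 to 95 bases before the start, and the ISRE match GAAAGTGAAA 213 to 204 bases before it. A promoter was available for 27 of the 38 genes. The NF-kB letters were in 5 of these 27 (Ccl9, Cxcl1, Cxcl2, Cxcl3 and Cxcl10), beside 4.65% of all 32851 promoters, and the ISRE letters were in 3 (Ccl19, Cxcl10 and Cxcl14), beside 2.98%. A match describes letters and not a bound site.

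Most of the counted chemokine genes were set apart by cell class within the healthy library. Of 30 genes with enough UMIs, 19 were at least 2-fold above the next of the 6 gates in their highest gate, beside 17.7% of all genes compared. The macrophage gate was highest for 11 of them (1.71% of all genes), Cxcl2, Ccl2, Ccl3, Ccl4, Ccl7, Ccl8, Ccl12, Ccl24, Cxcl16, Cx3cr1 and Ccr1. The EC gate was highest for Cxcl12, Ccl21a and Cxcl9 (3 genes, beside 3.05% of all genes), the FB gate for Cxcl1, Cxcl14 and Ccl19 (3 genes, beside 3.93%), the monocyte gate for Ccr2 and the B cell gate for Ccr7. At 2 weeks 16 of 22 genes were set apart in this way, beside 17.0% of all genes, and at 12 weeks 16 of 23, beside 20.5%. The macrophage gate held 10 and 9 of these. The share of all genes by gate was computed only for ECs, FBs and macrophages of the healthy library, so these counts have none beside them.

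**Figure D1:**
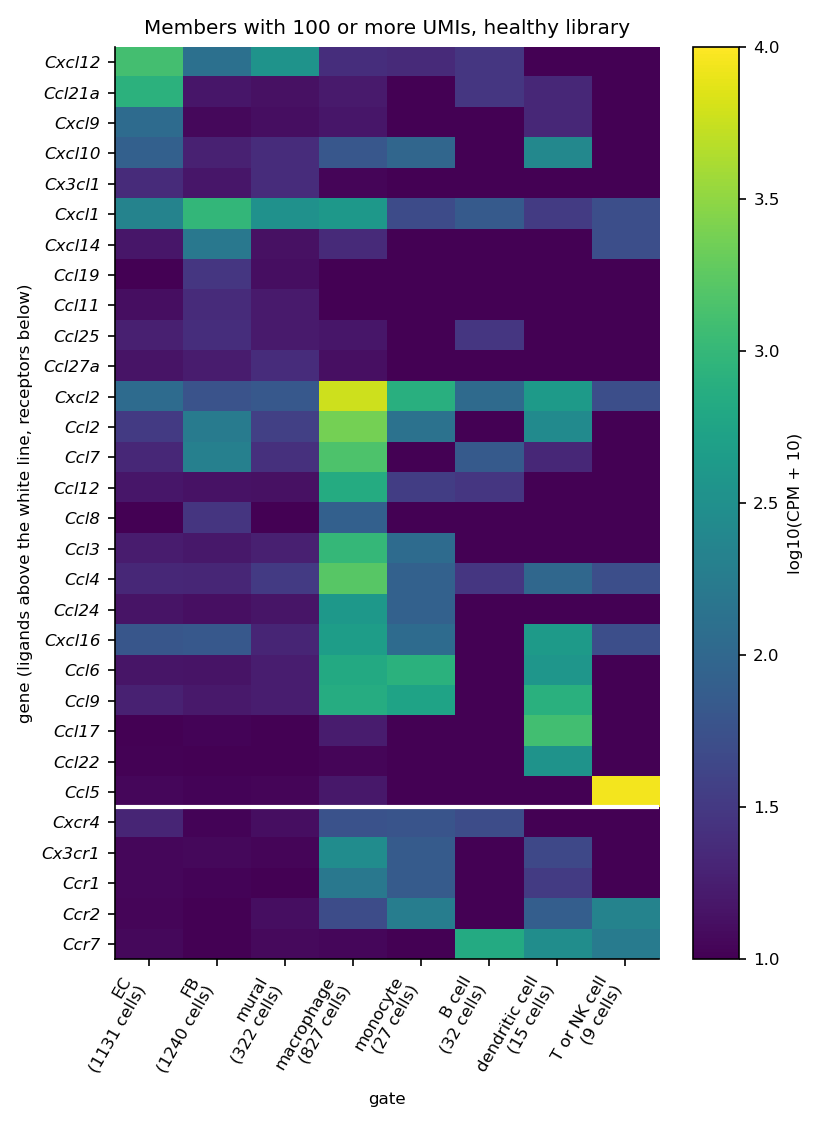
Levels of 30 of the members with at least 100 UMIs in 8 gates of the healthy library (rows are genes, ligands above the white line and receptors below, columns are gates with their cell numbers, color is log10 of CPM + 10). Bright cells of Cxcl2, Ccl2, Ccl7, Ccl3 and Ccl4 lie in the macrophage column, Cxcl12 and Ccl21a in EC, Cxcl1 in FB, Ccr7 in B cells, Ccl17 and Ccl22 in dendritic cells and Ccl5 in T or NK cells.

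Among the ligands of CXCR2, Cxcl2 was a gene of the macrophage gate in all phases. It stood at 5888 CPM (5790.1 to 5987), 5501 CPM (5188 to 5829) and 6860 CPM (6376 to 7372) at 0, 2 and 12 weeks. The healthy level was 7.60-fold (5.91 to 9.94) above that of monocytes, the next gate. A Cxcl2 UMI was found in 84.5, 82.4 and 74.1% of macrophages and in 12.3, 3.09 and 6.12% of FBs, whose median depth was no lower (2631, 1546.5 and 1269.5 UMIs per macrophage against 2966, 1584 and 2405 per FB). With every cell thinned to 1000 UMIs the macrophage shares were 76.9, 74.0 and 72.7%, after 0, 25 and 21 shallower macrophages were left out. Outside the macrophage gate Cxcl2 was lower after TAC in several gates. Monocytes stood at 774, 92.9 and 572 CPM, 8.34-fold (4.12 to 19.1) lower at 2 weeks, from 61, 9 and 24 UMIs. ECs stood at 103, 67.4 and 38.1 CPM, 2.71-fold (1.71 to 4.55) lower at 12 weeks, and FBs at 48.4, 11.5 and 20.7 CPM, 4.23-fold (1.43 to 20.7) lower at 2 weeks, where the FB count was 3 UMIs. These levels lay far below those of macrophages. Macrophage markers in FBs and ECs, given below with Ccl2, were lowest at 2 weeks, and their part in the Cxcl2 levels was not tested.

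Cxcl1, the other main CXCR2 ligand, stood highest in stroma. FBs stood at 956 CPM (926 to 986), 920.1 CPM (808 to 1044) and 783 CPM (716 to 856), 2.46-fold (2.29 to 2.65) above macrophages at 0 weeks and 2.14-fold (1.64 to 2.83) above mural cells at 2 weeks. At 12 weeks the FB level was 1.80-fold (1.32 to 2.50) that of the next gate, mural cells, short of the call. ECs held 208, 262 and 170.3 CPM, mural cells 319, 430.0 and 436 CPM, macrophages 389, 268 and 249 CPM and neural cells 575, 611 and 315 CPM, so this ligand was spread over every structural class. No gate called a Cxcl1 difference between phases. Cxcr2, the receptor of both, had 7, 9 and 3 UMIs in ECs and none in macrophages or monocytes, and 3, 2 and 2 UMIs in the 2, 6 and 13 cells of the neutrophil gate. Cxcl3 and Cxcl5, further ligands of this receptor, had 40 and 10 UMIs, with Cxcl3 in macrophages (28, 6 and 0 UMIs) and Cxcl5 in FBs (8, 0 and 2).

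The ligands of CCR2 were macrophage genes too. Ccl2 (MCP-1) stood in macrophages at 2381 CPM (2319 to 2444), 978 CPM (848 to 1121) and 3545 CPM (3199.6 to 3918) at 0, 2 and 12 weeks, and Ccl7 (MCP-3) at 1431 CPM (1383 to 1480.1), 551 CPM (455 to 662) and 1929.7 CPM (1677 to 2209.8). The lowest level of both was at 2 weeks, 2.44-fold (2.12 to 2.81) and 2.60-fold (2.16 to 3.15) below the healthy library, and neither was called at 12 weeks. Ccl12 (MCP-5) stood at 694, 565 and 849 CPM and Ccl8 (MCP-2) at 73.8, 91.1 and 46.2 CPM from 173, 19 and 5 UMIs, with no call. A Ccl2 UMI was found in 69.0, 39.2 and 64.8% of macrophages and 5.04, 0.395 and 3.54% of ECs, and thinning gave 56.8, 28.6 and 75.8% of macrophages. In the healthy library the next gate was FB for Ccl2 (macrophages 14.4-fold (13.3 to 15.6) higher), Ccl7 (7.35-fold (6.80 to 7.95)) and Ccl8 (3.92-fold (2.98 to 5.20)).

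Ccl2, Ccl7 and Ccl8 in FBs and Ccl2 in ECs stood far below the macrophage levels and were called lower after TAC. FB Ccl7 stood at 195, 0 and 35.0 CPM from 796, 0 and 22 UMIs, at least 17.0-fold lower at 2 weeks against the floor and 5.57-fold (3.65 to 8.94) lower at 12 weeks. FB Ccl2 stood at 166, 76.4 and 98.5 CPM, 2.17-fold (1.39 to 3.57) lower at 2 weeks, and EC Ccl2 at 22.4, 2.93 and 22.04 CPM from 76, 10 and 11 UMIs, 7.64-fold (3.93 to 16.6) lower at 2 weeks. FB Ccl8 had 77, 0 and 1 UMIs (18.8, 0 and 1.59 CPM), at least 1.64-fold lower at 2 weeks and 11.9-fold (2.06 to 474) lower at 12 weeks. The 8 macrophage markers summed to 100.02, 22.9 and 57.2 CPM in FBs and 96.8, 16.4 and 80.1 CPM in ECs, with 8, 4 and 7 of 8 detected in FBs and 8, 6 and 7 in ECs, so these markers were also lowest at 2 weeks in both gates. Their part in these lower levels was not tested.

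Ccl3 and Ccl4, inflammatory ligands of the CC family, were called higher in macrophages at 12 weeks, and few cells carried the difference. Ccl4 (MIP-1 beta) stood in macrophages at 1658 CPM (1607 to 1711), 1936 CPM (1752 to 2134) and 4801 CPM (4397 to 5232), 2.90-fold (2.64 to 3.17) above the healthy level at 12 weeks. Ccl3 (MIP-1 alpha) stood at 976 CPM (936 to 1017), 1159.7 CPM (1018 to 1315) and 3102 CPM (2779 to 3452), 3.18-fold (2.83 to 3.57) above it. A single macrophage held 204 of the 564 Ccl4 UMIs of the 12-week library (36.2%), and one held 142 of the 355 Ccl3 UMIs (40%). Without the top cell in both libraries the levels were 3029 against 1616 CPM for Ccl4 and 1859.6 against 946 CPM for Ccl3, ratios of 1.87 and 1.97 that no longer passed the call. A Ccl4 UMI was found in 51.6, 48.0 and 53.7% of macrophages, so the share of cells with the gene moved little while the level was called higher.

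Ccl6 and Ccl9, CCR1 ligands of rodent myeloid cells, were counted in both monocytes and macrophages. Ccl6 stood at 813, 1228 and 1381 CPM in monocytes, 653, 349.8 and 1080.2 CPM in macrophages and, at 2 and 12 weeks, 3869.5 and 2874 CPM in the few neutrophils. Monocytes were 3.51-fold (2.60 to 4.77) above macrophages in Ccl6 at 2 weeks, a called difference, and the gates were not called apart at 0 and 12 weeks. Ccl9 stood at 705, 489 and 840.2 CPM in macrophages and 533, 712 and 1072 CPM in monocytes. Neither was called between phases in either gate. Ccl5 (RANTES) was a gene of the T or NK gate, with 207 UMIs in 9 healthy cells (8746 CPM) and 21 UMIs in 21 cells at 12 weeks (336 CPM). In macrophages Ccl5 had 13, 16 and 0 UMIs (5.55, 76.7 and 0 CPM), 13.8-fold (6.23 to 31.2) higher at 2 weeks, and the count fell under the minimum for a call when its top cell was left out. T or NK markers summed to 1.28, 0 and 18.5 CPM in macrophages, with 0 of 7 detected at 2 weeks.

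Ccl24 (eotaxin-2), a CCR3 ligand of alternatively activated macrophages, was nearly absent at 2 weeks. Macrophages stood at 392 CPM (367 to 418), 14.4 CPM (2.96 to 42.0) and 249 CPM (164 to 363) from 919, 3 and 27 UMIs, 27.3-fold (9.30 to 133) lower at 2 weeks, and the 12-week level was not called against the healthy one. The 12-week count was concentrated, with 18 of the 29 UMIs of the library in 1 macrophage. Ccl11 (eotaxin), the CCR3 ligand of stroma, was an FB gene at 13.7, 15.3 and 46.1 CPM from 56, 4 and 29 UMIs, 3.36-fold (2.07 to 5.36) higher at 12 weeks. Of the 29 UMIs at 12 weeks 21 were in 1 FB, and without the top cells the ratio was 1.09. Cxcl16, the membrane-bound ligand of CXCR6 and a scavenger of oxidised lipoprotein, stood at 452, 800.3 and 323 CPM in macrophages, 56.2, 76.4 and 50.8 CPM in FBs and 52.7, 53.0 and 50.1 CPM in ECs, with no call between phases.

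**Figure D2:**
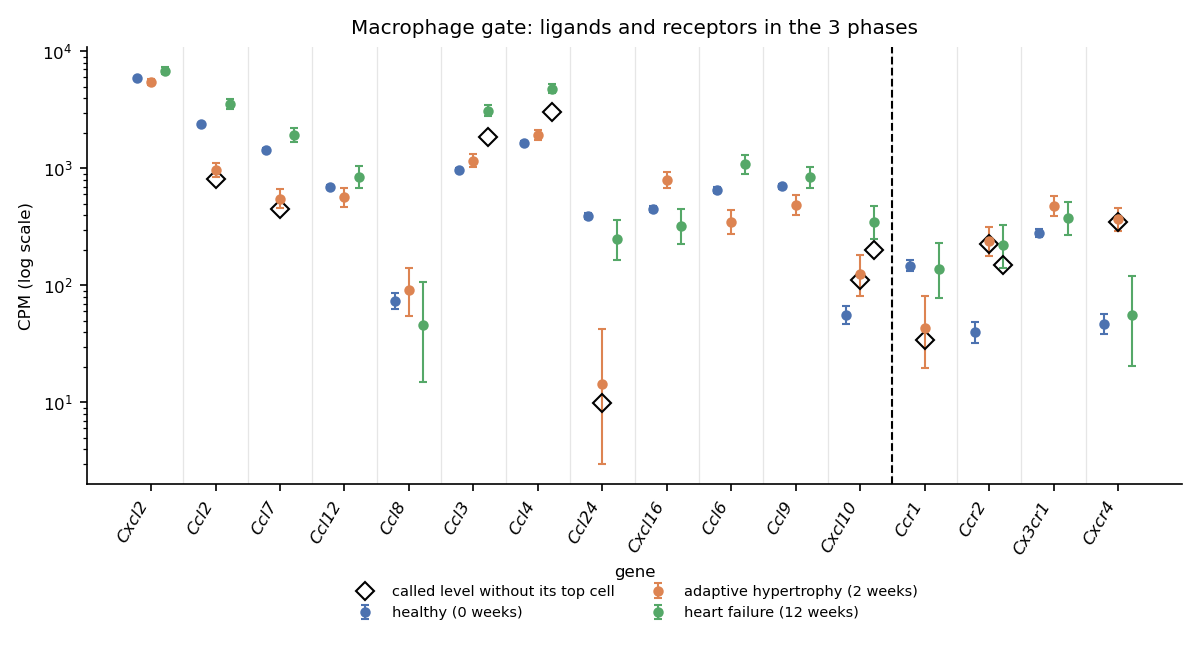
Levels of 12 ligands and 4 receptors (right of the dashed line) in the macrophage gate at 0, 2 and 12 weeks, in CPM on a log scale, with exact 95% intervals for counting error, and open diamonds for called levels without the cell that held most UMIs. Ccl2 and Ccl7 are lowest at 2 weeks, Ccl24 drops from 392 to 14.4 CPM, and Cxcr4 peaks at 369 CPM at 2 weeks, while the diamonds of Ccl3 and Ccl4 at 12 weeks lie below their points.

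Cxcl10 (IP-10), an interferon-inducible ligand of CXCR3, was called in different directions in different gates. It stood in ECs at 72.4 CPM (63.6 to 82.0), 60.3 CPM (52.4 to 69.2) and 16.0 CPM (6.92 to 31.6) at 0, 2 and 12 weeks, 4.52-fold (2.26 to 10.6) lower at 12 weeks, from 246, 206 and 8 UMIs. In macrophages it stood at 55.9 CPM (46.7 to 66.3), 125 CPM (81.4 to 183) and 351 CPM (248 to 482), 2.23-fold (1.40 to 3.41) and 6.28-fold (4.25 to 9.07) higher, from 131, 26 and 38 UMIs in 59, 15 and 3 cells. The 12-week macrophage level thus came from 3 cells, and without the top 5 cells of the gene the macrophage ratios were 1.55 and 0, neither called. In FBs it stood at 9.05, 22.9 and 28.6 CPM, 3.16-fold (1.69 to 5.69) higher at 12 weeks, and this was not called without the top cells (ratio 2.57). Cxcl9 (MIG), another ligand of this receptor, stood in ECs at 102, 134 and 52.1 CPM, with no call between phases. ECs were 19.9-fold (11.3 to 39.0) above macrophages, the next gate, at 0 weeks and 4.67-fold (2.13 to 12.8) above them at 2 weeks, while at 12 weeks the ratio was 1.88 (0.576 to 9.71) and not called. Cxcr3, their receptor on activated T cells, had 22 UMIs in all.

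The homeostatic ligand Cxcl12 (SDF-1) was the most counted member in ECs. It stood there at 1264 CPM (1226 to 1302), 1463 CPM (1423 to 1504) and 1947 CPM (1827 to 2074) at 0, 2 and 12 weeks, 3.80-fold (3.40 to 4.24), 5.03-fold (3.79 to 6.84) and 9.35-fold (6.08 to 15.2) above mural cells, the next gate. A UMI was found in 68.6, 68.9 and 63.3% of ECs against 3.26, 3.92 and 13.0% of macrophages, and in 53.7, 58.6 and 61.1% of ECs thinned to 1000 UMIs. Mural cells held 333, 291 and 208 CPM and FBs 118, 126 and 124 CPM. The difference between phases in ECs stayed within 2-fold, and 12 weeks against 2 weeks gave a ratio of 1.33 (1.24 to 1.43). Macrophage Cxcl12 was called higher at 2 weeks (4.62-fold (2.29 to 8.85)) and 12 weeks (4.45-fold (1.67 to 10.2)), from 34, 14 and 7 UMIs in 27, 4 and 7 cells. EC markers in macrophages summed to 74.7, 144 and 212 CPM in the same order, and without the top cells the 2-week ratio was 1.10. The part of EC RNA in these macrophage levels was not tested.

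Within ECs, Cxcl12 was lower in the venous range (cells with at least 2 venous markers, 165, 173 and 24 ECs), at 0.367, 0.349 and 0.118 times the level of other ECs. It was nearly missing from lymphatic ECs, at 0.0298 (0.00968 to 0.0697) times in the healthy library. Arterial ECs (179, 291 and 63 cells) stood at 1.22 (1.14 to 1.31), 1.26 (1.18 to 1.34) and 0.815 (0.701 to 0.945) times the other ECs. Cxcl1 had the opposite placing, higher in venous ECs by ratios of 1.81 (1.54 to 2.12), 2.06 (1.77 to 2.39) and 8.91 (5.67 to 14.1). The ranges may overlap in cells, and venous and arterial ECs were deeper than the rest, with healthy medians of 3308 and 2774 UMIs against 2110.5 and 2159.

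Ccl21a, a CCR7 ligand that guides dendritic cells and T cells into lymphatic vessels, came from a handful of lymphatic ECs. ECs stood at 848, 29.0 and 124 CPM from 2880, 99 and 62 UMIs, 29.2-fold (23.9 to 36.1) lower at 2 weeks and 6.82-fold (5.31 to 8.93) lower at 12 weeks. Lymphatic ECs, 33, 13 and 6 cells or 2.92, 0.733 and 1.93% of ECs, held 2867, 98 and 61 of those UMIs. Their own level was 22439, 4559.6 and 10175 CPM, with a UMI in 26, 4 and 3 cells, and 1 cell held 76.1% of the 2-week and 82.1% of the 12-week UMIs of the gene. Both the share of ECs that were lymphatic and their level were lower than in the healthy library. The gene list holds near-identical Ccl21 copies, and reads shared between copies could be split or dropped, so the Ccl21a level is uncertain, as are those of Ccl19 and Ccl27a.

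Ccl19, the other CCR7 ligand and a gene of stroma that organises lymphoid tissue, was called higher in FBs at 12 weeks. FBs stood at 19.8 CPM (15.7 to 24.6), 15.3 CPM (4.16 to 39.1) and 227 CPM (191 to 268) from 81, 4 and 143 UMIs, 11.5-fold (8.67 to 15.3) higher at 12 weeks. The UMIs were found in 65, 4 and 43 FBs, and one FB held 50 of the 144 UMIs of the 12-week library. Without the top cells the FB level was 149 against 18.6 CPM, still 8.03-fold higher. Within FBs of 12 weeks the activated range, marked by genes such as Postn, was 1.66 (1.17 to 2.34) times the rest, with 15 of 64 cells carrying a UMI. This ratio set 81 against 62 UMIs, so the single FB with 50 UMIs can carry it. In healthy FBs the activated range was lower, at 0.427 (0.204 to 0.812) times the rest. Macrophages, monocytes and B cells of all 3 libraries held no Ccl19 UMI.

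Cxcl14, a chemokine of resting fibroblasts and epithelia, followed a different course. FBs stood at 150.4, 34.4 and 173 CPM from 615, 9 and 109 UMIs, 4.38-fold (2.29 to 9.62) lower at 2 weeks and not called at 12 weeks. In healthy FBs it was lower in the activated range (0.235 (0.172 to 0.315) times the rest) and in the adventitial range (0.392 (0.325 to 0.471)), and the activated range held 19.6, 52.6 and 32.7% of FBs at 0, 2 and 12 weeks. Cxcl1 was likewise lower in the activated (0.424 (0.386 to 0.464)) and adventitial (0.497 (0.464 to 0.533)) ranges of healthy FBs. Ccl25, a ligand of CCR9 best known in thymus and gut, had 59, 2 and 0 UMIs in FBs (14.4, 7.64 and 0 CPM), at least 3.03-fold lower at 12 weeks against the floor. Ccl27a was low in every gate, with its highest level in mural cells (14.2, 12.1 and 29.7 CPM).

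Cx3cl1 (fractalkine), a membrane-bound ligand that tethers CX3CR1-bearing monocytes and macrophages, was the ligand called higher after TAC in both ECs and FBs at both times. ECs stood at 13.5 CPM (9.91 to 18.1), 39.5 CPM (33.1 to 46.8) and 50.1 CPM (32.4 to 73.9) from 46, 135 and 25 UMIs, 2.92-fold (2.08 to 4.17) higher at 2 weeks and 3.70-fold (2.18 to 6.15) higher at 12 weeks. FBs stood at 5.38, 42.0 and 30.2 CPM from 22, 11 and 19 UMIs, 7.81-fold (3.42 to 16.8) and 5.61-fold (2.87 to 10.9) higher. Leaving out the top cell of the gene kept all 4 calls, and leaving out the top 5 cells ended the FB call at 2 weeks, which then rested on 3 UMIs, and kept the other 3. In ECs the arterial range was higher, at 2.26 (1.18 to 4.23), 3.03 (2.12 to 4.30) and 4.54 (1.89 to 11.7) times the other ECs at 0, 2 and 12 weeks, and the venous range stood at 2.49 (1.31 to 4.65), 1.46 (0.922 to 2.25) and 1.56 (0.457 to 4.28) times. EC markers summed to 119, 141 and 173 CPM in FBs, and their part in the FB level was not tested. The 2-week and 12-week comparisons share the healthy library, so their calls are not independent of each other.

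**Figure D3:**
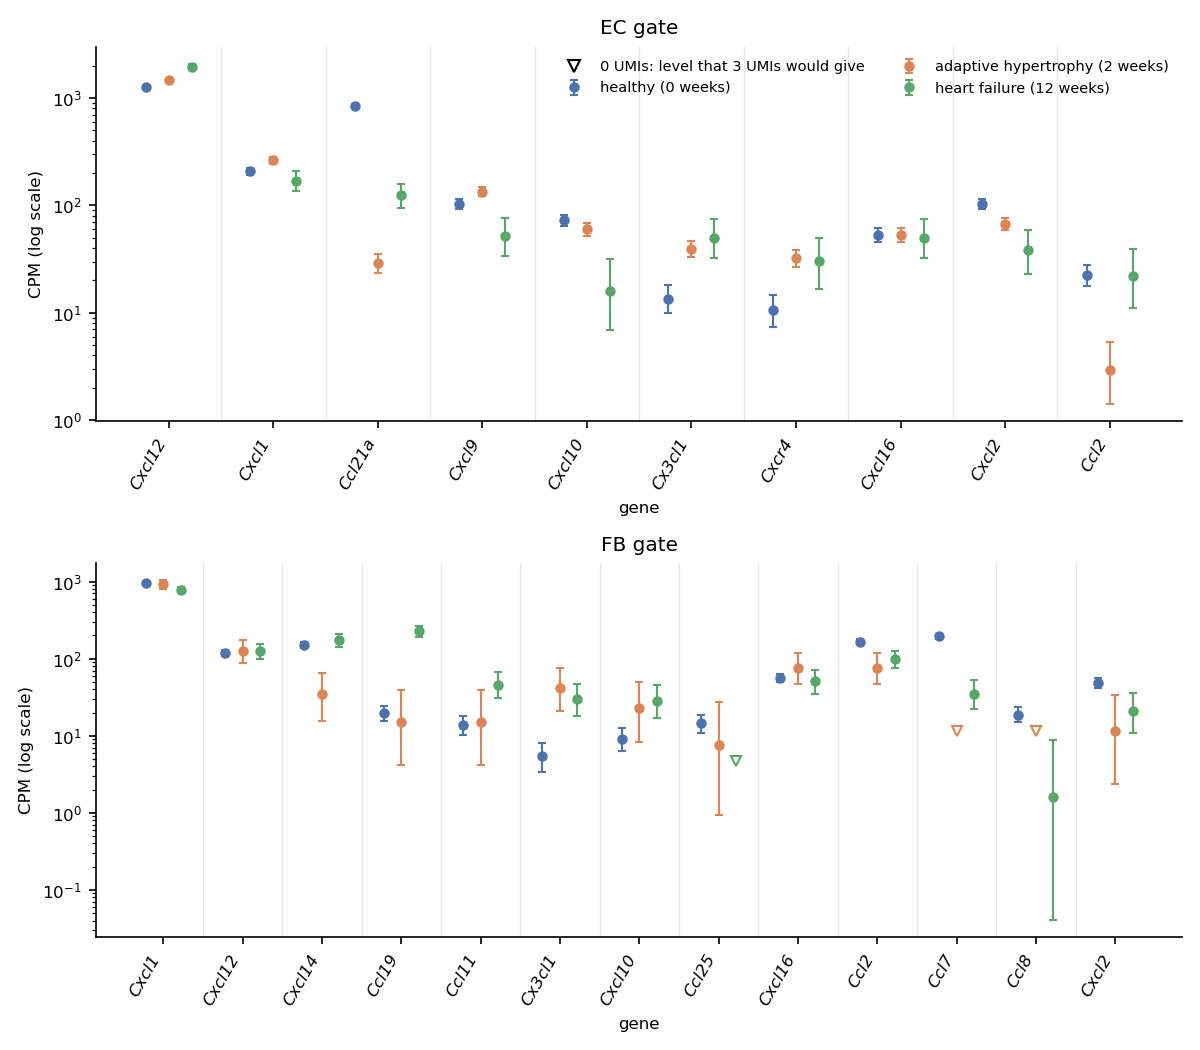
Levels of members in ECs (top) and FBs (bottom) at 0, 2 and 12 weeks, in CPM on a log scale, with exact 95% intervals for counting error and open triangles where the count was 0, drawn at the level of 3 UMIs. In ECs Cxcl12 stays between 1264 and 1947 CPM while Ccl21a drops to 29.0 CPM at 2 weeks, and in FBs Ccl19 reaches 227 CPM at 12 weeks while Ccl7 has no UMI at 2 weeks.

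Ccl17 and Ccl22, the CCR4 ligands of migrating dendritic cells, had most of their UMIs in the dendritic gate. Ccl17 had 108 UMIs in 4 of 15 healthy dendritic cells (1232 CPM) and 96 UMIs in 3 of 16 at 2 weeks (1669 CPM), and Ccl22 had 30 and 54 UMIs (342 and 939 CPM). At 12 weeks the gate held 1 cell, so no level is read there.

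Among the receptors, Cxcr4 stood out in macrophages of the 2-week library. Macrophages stood at 46.9 CPM (38.6 to 56.6), 369 CPM (291 to 461) and 55.4 CPM (20.3 to 121) at 0, 2 and 12 weeks, 7.86-fold (5.80 to 10.6) higher at 2 weeks and back near the healthy level at 12 weeks, from 110, 77 and 6 UMIs. A UMI was found in 9.55, 44.1 and 11.1% of macrophages, beside 0.242, 1.03 and 1.02% of FBs, and in 4.11, 29.9 and 3.03% of macrophages thinned to 1000 UMIs. Leaving out the top cells moved the ratio to 7.80, so the higher level was spread over many cells. ECs stood at 10.6, 32.2 and 30.1 CPM from 36, 110 and 15 UMIs, 3.04-fold (2.07 to 4.56) higher at 2 weeks. At 12 weeks the EC ratio was 2.84 (1.44 to 5.31), just short of the call. The arterial range held 3.93 (1.93 to 8.04) and 2.99 (2.01 to 4.42) times the level of other ECs at 0 and 2 weeks. Monocytes stood at 50.8, 258 and 191 CPM from 4, 25 and 8 UMIs, 5.08-fold (1.75 to 20.1) higher at 2 weeks. At 12 weeks the monocyte ratio was 3.75 (1.01 to 17.0), with too few UMIs for a call. Neutrophils held 921 and 676 CPM at 2 and 12 weeks, from 5 and 12 UMIs.

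Ccr2, the receptor by which monocytes follow CCL2, was also higher in the macrophage gate after TAC. Macrophages stood at 39.7 CPM (32.0 to 48.6), 239.6 CPM (178 to 316) and 222 CPM (142 to 329.7) from 93, 50 and 24 UMIs, 6.04-fold (4.19 to 8.60) higher at 2 weeks and 5.58-fold (3.41 to 8.82) higher at 12 weeks. Without the top cell of the gene the ratios were 6.04 and 4.03, and without the top 5 cells 6.24 and 1.68, so the 12-week call was lost there. Monocytes stood at 178, 227 and 524 CPM from 14, 22 and 22 UMIs, 2.95-fold (1.44 to 6.23) higher at 12 weeks, where the gate held 9 cells. In the healthy library monocytes were 4.48-fold (2.36 to 7.90) above macrophages, and in the 2-week library the levels of both gates lay side by side. Monocyte markers summed to 30.3, 105 and 73.9 CPM in macrophages with 7, 5 and 4 of 8 detected, dendritic markers to 204, 604 and 600.1 CPM with 5, 3 and 2 of 8, and neutrophil markers to 36.7, 24.0 and 323 CPM with 7, 3 and 6 of 8. Their part in the macrophage levels of Ccr2 and Cxcr4 was not tested.

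Cx3cr1, the fractalkine receptor of tissue macrophages, stood in macrophages at 279, 479 and 379 CPM and in monocytes at 63.5, 82.6 and 238 CPM, and no difference between phases was called. Ccr1 stood in macrophages at 147, 43.1 and 138 CPM from 345, 9 and 15 UMIs, 3.41-fold (1.78 to 7.53) lower at 2 weeks, with 63.5, 124 and 71.5 CPM in monocytes. Ccr7, the receptor of CCL19 and CCL21 on lymphocytes and mature dendritic cells, was the B cell receptor of the set, at 678 CPM (469 to 947) in 32 cells at 0 weeks and 967 CPM (796 to 1165) in 78 cells at 12 weeks, with no B cell gated at 2 weeks, and at 285 and 243 CPM in dendritic cells at 0 and 2 weeks. Besides Cxcr2, 4 receptors had fewer than 100 UMIs, Cxcr6 (43 UMIs, 24 of them in T or NK cells at 12 weeks), Cxcr5 (23, with 5 and 11 in B cells), Xcr1 (23) and Cxcr3 (22).

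Counted over all members, called differences between phases went both ways. In ECs at 2 weeks 2 of 16 genes were called higher (Cxcr4 and Cx3cl1, beside 0.859% of all genes) and 2 lower (Ccl2 and Ccl21a, beside 1.48%), and at 12 weeks 1 of 16 was higher (Cx3cl1, beside 2.65%) and 3 lower (Cxcl2, Cxcl10 and Ccl21a, beside 2.26%). The median log2 ratio of the members in ECs was -0.32 at 2 weeks and -0.12 at 12 weeks, beside 0.00 and 0.06 over all genes compared. In FBs at 2 weeks 1 of 18 was higher (Cx3cl1, beside 3.36%) and 5 lower (Cxcl2, Ccl2, Ccl7, Ccl8 and Cxcl14, beside 3.86%), with a median of -0.53 beside -0.02. In FBs at 12 weeks 4 of 19 were higher (Ccl19, Ccl11, Cx3cl1 and Cxcl10, beside 1.88%) and 3 lower (Ccl7, Ccl8 and Ccl25, beside 0.925%), with a median of 0.07 beside 0.01. Without the top cell of each gene the 12-week FB calls were 2 higher and 3 lower, since those of Cxcl10 and Ccl11 were lost.

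In macrophages at 2 weeks 5 of 22 members were called higher (Cxcr4, Ccr2, Cxcl10, Cxcl12 and Ccl5, beside 5.73% of all genes) and 4 lower (Ccl2, Ccl7, Ccl24 and Ccr1, beside 5.82%), with a median of 0.26 beside 0.02. In macrophages at 12 weeks 5 of 21 were higher (Ccl3, Ccl4, Cxcl10, Cxcl12 and Ccr2, beside 6.64%) and 1 lower (Cxcl3, beside 9.90%), with a median of 0.25 beside -0.02. The Cxcl3 call set 28 UMIs against 0 where the floor lay above the healthy level, so no fold is given. In monocytes at 2 weeks 1 of 5 was higher (Cxcr4, beside 9.99%) and 1 lower (Cxcl2, beside 4.42%), and at 12 weeks 1 of 4 was higher (Ccr2, beside 10.3%) and 0 lower (beside 5.28%). Mural cells had 0 of 5 higher at either time (beside 3.11% and 5.42%) and 2 lower at each, Cxcl2 and Ccl4 at 2 weeks (beside 7.17%) and Cxcl2 and Ccl2 at 12 weeks (beside 13.4%). Mural Cxcl2 stood at 57.9, 18.2 and 9.91 CPM from 61, 3 and 1 UMIs. Summed levels of 12 dissociation-stress genes, which collagenase digestion is known to raise, were 13812, 13284 and 18863 CPM in macrophages, 17032, 14641 and 19299 CPM in FBs, 25476, 21574 and 19618 CPM in ECs and 6539, 7245 and 9169.5 CPM in monocytes, and the median mitochondrial share per macrophage was 2.79, 4.43 and 8.80%. Their part in these differences was not tested.

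The healthy macrophage gate was split by resident macrophage genes in its chemokine use. Cells with a UMI of Folr2, Lyve1 or Timd4, markers of macrophages seeded before birth, made up 435 of 827 healthy, 12 of 102 and 23 of 54 macrophages at 2 and 12 weeks. In the healthy library they stood above the other macrophages in Ccl8 (63.5 (17.3 to 529) times, from 171 against 2 UMIs), Ccl24 (6.37 (5.15 to 7.95)), Ccl7 (2.53 (2.33 to 2.75)), Ccl6 (2.50 (2.21 to 2.82)), Ccl9 (2.25 (2.01 to 2.52)), Ccl2 (2.09 (1.97 to 2.22)) and Ccr1 (1.57 (1.24 to 1.98)). They stood below them in Ccr2 (0.217 (0.127 to 0.356)), Cxcl16 (0.519 (0.458 to 0.588)), Ccl3 (0.527 (0.484 to 0.573)), Ccl4 (0.593 (0.556 to 0.632)), Cx3cr1 (0.705 (0.603 to 0.825)) and Cxcl2 (0.832 (0.805 to 0.860)). Cxcl14, which stood highest in FBs, was also lower in them, at 0.149 (0.0444 to 0.395) times from 5 against 25 UMIs. The part of FB RNA in this difference was not tested. Ccl12, at 1.06 (0.959 to 1.17), did not separate the 2 ranges. The resident cells were the deeper ones, at a median of 2966 against 2439.5 UMIs.

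**Figure D4:**
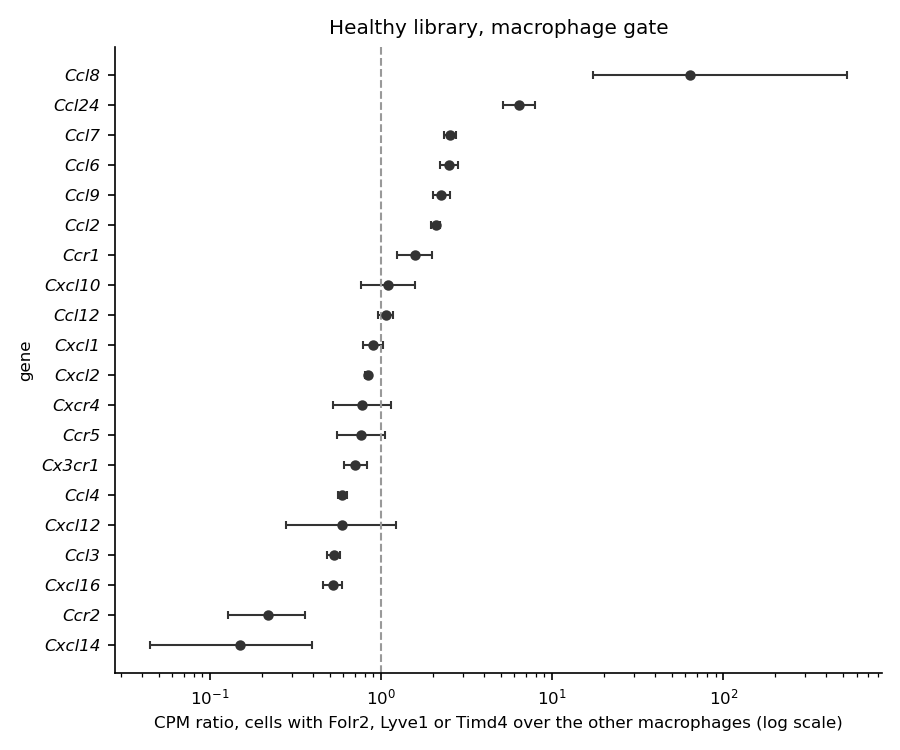
Ratio of the level in healthy macrophages with a UMI of Folr2, Lyve1 or Timd4 (435 cells) to that in the other macrophages (392 cells), on a log scale with exact 95% intervals for counting error, and the dashed line at 1. Ccl8, Ccl24, Ccl7, Ccl6, Ccl9 and Ccl2 lie to the right, and Cxcl14, Ccr2, Cxcl16, Ccl3 and Ccl4 to the left.

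The same split was read in the smaller macrophage gates after TAC. At 2 weeks, when 11.8% of macrophages were in the resident range against 52.6% in the healthy library, the 12 resident cells held 2173 CPM of Ccl2 and 1766 CPM of Ccl7, 3.01 (2.24 to 4.02) and 6.07 (4.13 to 8.96) times the other macrophages. The healthy resident range held 3061 and 1928 CPM. At 12 weeks the resident range held 5023 CPM of Ccl2 and 613 CPM of Ccl24 (26 UMIs against 1 in the other macrophages), close to its healthy Ccl24 level of 612 CPM. Ccl4, Ccl3 and Cxcl2 were lower in the resident range at 12 weeks, at 0.137 (0.0972 to 0.187), 0.0932 (0.0554 to 0.148) and 0.358 (0.295 to 0.431) times the other macrophages. At 2 weeks this side of the healthy split was not seen, with Ccl4 higher in the resident range at 2.34 (1.89 to 2.89) times, and Ccl3 at 1.19 (0.848 to 1.63), Cxcl2 at 1.14 (0.979 to 1.32) and Ccr2 at 1.17 (0.520 to 2.37) times. Ccl12 stood at 3.43 (2.33 to 5.02) times at 2 weeks and 0.211 (0.101 to 0.398) times at 12 weeks. None of the 24 Ccr2 UMIs and 38 Cxcl10 UMIs of the 12-week macrophages were in it. With 12 and 23 resident cells in these libraries, single cells can carry such values.

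Many macrophages held UMIs of several of the 6 inflammatory ligands Cxcl2, Ccl2, Ccl3, Ccl4, Ccl7 and Ccl12. Each was common in healthy macrophages by itself, in 84.5, 69.0, 45.0, 51.6, 46.9 and 34.6% of cells in that order. The share expected from these values alone was not computed, so the counts below do not show that the genes go together. At least 3 of them had a UMI in 574 of 827 macrophages (69.4%) at 0 weeks, 53 of 102 (52.0%) at 2 weeks and 34 of 54 (63.0%) at 12 weeks. Thinned to 1000 UMIs per cell, the shares were 51.5%, 46.8% of 77 and 63.6% of 33 macrophages, after 0, 25 and 21 shallower cells were left out, and the order of the phases was not the same as before thinning.

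How evenly the UMIs of a gene were spread over cells differed widely. For Cxcl12 the top cell held 0.843, 0.651 and 3.06% of the UMIs of the library, and for Cxcr4 2.89, 2.14 and 4.11%. For Cxcl2 it held 0.868, 5.49 and 19.2%, for Ccl7 2.02, 17.8 and 30.5% and for Cxcl10 4.50, 8.20 and 26.6%. Of 9 calls in macrophages at 2 weeks 7 remained past the 2-fold call when the top cell of each gene was left out, of 6 at 12 weeks 3 did (Cxcl10, Cxcl12 and Ccr2), and of 7 in FBs at 12 weeks 5 did. In ECs 4 of 4 remained at both times and in FBs at 2 weeks 6 of 6. Without the top 5 cells of each gene 6 of 9 macrophage calls remained at 2 weeks and 0 of 6 at 12 weeks, 5 of 6 and 5 of 7 remained in FBs, and 4 of 4 at both times in ECs. Where the gate after TAC was smaller than the healthy gate, leaving out cells takes more from it. Lower calls are then hard to lose and higher calls easy, so these shares do not rank the gates.

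**Figure D5:**
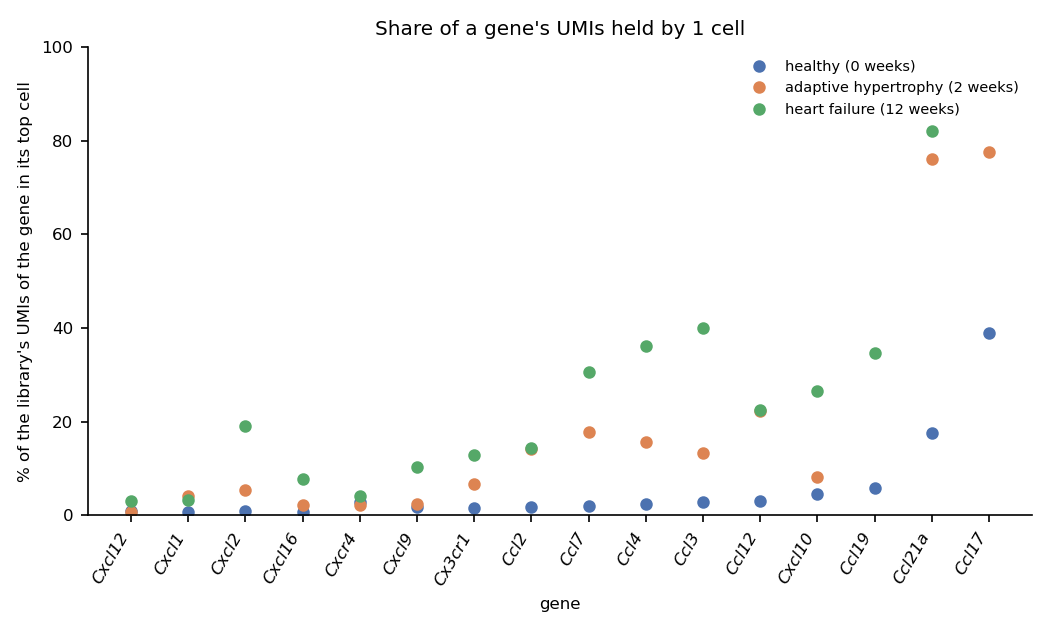
Share of a gene's UMIs in a library that lay in the 1 cell with most of them, in percent, for 16 members at 0, 2 and 12 weeks. Cxcl12, Cxcl1 and Cxcr4 stay low in all libraries, Ccl3, Ccl4 and Ccl7 climb to between 30.5 and 40% at 12 weeks, and Ccl21a reaches 82.1%.

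Set side by side, some ligands stood highest in a different gate from their receptor and others in the same gate. Of 32 listed ligand and receptor pairs 23 had both genes counted. Cxcl12 of ECs met a Cxcr4 level that was highest of the 6 gates in monocytes at 0 and 12 weeks (50.8 and 191 CPM) and in macrophages at 2 weeks (369 CPM). Ccl2 and Ccl7 of macrophages stood beside Ccr2 that was highest in monocytes at 0 and 12 weeks and in macrophages at 2 weeks. Ccl3 and Ccl7 shared the macrophage gate with Ccr1 at 0 and 12 weeks. Ccl21a of lymphatic ECs and Ccl19 of FBs stood beside Ccr7 of B cells. Cxcl1 and Cxcl2, the most counted ligands of FBs and macrophages, stood beside a Cxcr2 level of at most 2.06 and 2.64 CPM in the 6 gates at 0 and 2 weeks. At 12 weeks the highest was 8.71 CPM in B cells, from 1 UMI. The neutrophil gate, whose few cells also held Cxcr2 UMIs as given above, is not among these 6. These are levels of transcripts and say nothing of proteins in contact.

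Of 13 other genes of the pathway (scavenging receptors, platelet chemokines and signalling partners), all in the gene list, 10 had at least 100 UMIs. In macrophages at 2 weeks 2 of 8 compared were higher (beside 5.73% of all genes) and 1 lower (beside 5.82%), and at 12 weeks 2 of 8 were higher (beside 6.64%) and 0 lower (beside 9.90%). Ccrl2, which holds chemerin at the cell surface, stood in macrophages at 135, 326 and 92.3 CPM (2.42-fold (1.83 to 3.15) higher at 2 weeks), and Rgs1, which shortens chemokine receptor signals, at 150.2, 489 and 268 CPM (3.25-fold (2.58 to 4.07) higher). Pf4 (CXCL4), a chemokine of platelets and of macrophages, stood in macrophages at 3690.3, 1179 and 3638 CPM, 3.13-fold (2.76 to 3.57) lower at 2 weeks, as Ccl2, Ccl7 and Ccl24 were. The 2 called higher at 12 weeks were Ppbp, given below, and Arrb1, an arrestin that ends receptor signalling, on 7 UMIs (2.37-fold (0.915 to 5.16)).

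In ECs 0 of 6 were called at 2 weeks (beside 0.859% of all genes higher and 1.48% lower), and at 12 weeks 3 of 7 were higher (beside 2.65%) and 0 lower (beside 2.26%). In FBs 0 of 8 were higher (beside 3.36%) and 1 lower (Ackr2, beside 3.86%) at 2 weeks, and 2 of 9 were higher (beside 1.88%) and 0 lower (beside 0.925%) at 12 weeks. In mural cells Pf4 was lower at 2 weeks (1 of 5, beside 7.17%) and Ackr3 higher at 12 weeks (1 of 4, beside 5.42%), and in B cells at 12 weeks Dock2 was higher (1 of 2, beside 10.5%) and Gnai2 lower (beside 3.50%). In monocytes 0 of 1 was called at either time. Ppbp (CXCL7), the platelet ligand of CXCR2, stood in ECs at 3.24, 0.586 and 100.17 CPM and in FBs at 0.245, 0 and 79.4 CPM, and Pf4 stood at 32.7, 20.2 and 116 CPM in ECs and 25.4, 11.5 and 79.4 CPM in FBs. Ppbp was thus 30.9-fold (15.9 to 65.9) higher in ECs at 12 weeks and Pf4 3.56-fold (2.54 to 4.93) in ECs and 3.12-fold (2.18 to 4.42) in FBs. The 12-week Ppbp level was not particular to these gates. Macrophages stood at 13.2 CPM at 0 weeks and 111 CPM at 12 weeks, 8.38-fold (3.92 to 16.8) higher. Mural cells stood at 69.4 CPM from 7 UMIs and B cells at 95.9 CPM from 11 UMIs at 12 weeks, too few for a call. The 6 platelet markers without these genes summed to 11.5, 17.0 and 70.1 CPM in ECs and 7.58, 15.3 and 58.8 CPM in FBs, and their part was not tested. Ccrl2 was 4.71-fold (2.77 to 7.90) higher in ECs at 12 weeks (11.5, 19.3 and 54.1 CPM). Ackr3, the scavenger of CXCL12, stood at 258, 252 and 324 CPM in FBs and 109, 175 and 178 CPM in ECs, and Ackr4, the scavenger of CCL19 and CCL21, at 69.4, 64.9 and 30.2 CPM in FBs, with no call in either gate. Gnai2, the G protein subunit that chemokine receptors use, stood at 1377, 1279.5 and 869.5 CPM in ECs and 862, 958 and 554 CPM in macrophages, Arrb2 at 147, 201 and 194 CPM and Dock2, which drives leukocyte migration, at 62.7, 115 and 92.3 CPM in macrophages, all without a call.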

How the data were processed

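Non-cardiomyocytes of 3 phases were profiled with 10x 3' libraries, 1 library per phase. The authors counted UMIs per gene and cell with Cell Ranger 2.0.0 on mm10, per the submitters' processing notes, and deposited these raw counts of 27998 genes without normalization. The members and gene lists were chosen with earlier results of these data known, and no list is independent evidence.

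Cells with at least 200 genes were kept. Each cell was assigned to the class with the highest sum of log(1 + UMIs per 10000) over 8 markers (6 for B cells and 7 for T or NK cells, since the others were not found in the gene list), when at least 2 markers had a UMI and the sum was at least 1.5 times the next. Sub-ranges needed at least 2 markers, or 1 for resident macrophages. No doublet caller was run. Cells whose top marker sum was under 1.5 times the next fell to the ungated class, while cells with weaker mixing kept their gate. Removal of the top 1% of cells by UMIs was an alternative. UMIs were summed per gate and library and given as CPM with exact Poisson intervals, ratios with exact conditional binomial intervals and shares of cells with Clopper-Pearson intervals, all at 95% and for counting error only. Phase and library cannot be told apart, cells are not replicates, and no p-value was computed. Named genes were the 31 members with at least 100 UMIs in kept cells (1 of them is not reported here), and members past the 2-fold call (10 CPM added, at least 20 UMIs) in EC, FB, macrophage or monocyte gates. The same call over all genes gave the background. Ratios of gates were checked on simulated counts. Positions come from the GENCODE annotation and promoters from RefSeq. Duplicate symbols were kept apart by Ensembl identifier. Other settings were the gate margin, raw marker sums, cell filters, a mean over cells, 1 CPM added and other UMI minima. Python 3.11.15, numpy 2.4.6, scipy 1.17.1, pandas 2.3.3 and matplotlib 3.10.9 were used.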

Additional observations from a re-analysis of the deposited data

Results flagged for a closer look

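Cxcl10 at 12 weeks against 0 weeks went in opposite directions in different gates. The log2 ratio with 10 CPM added was -1.66 in ECs, 1.02 in FBs and 2.45 in macrophages. With 1 library per phase the difference between gates was not tested. The EC value set 8 against 246 UMIs, the FB value 18 against 37 UMIs, and the macrophage value 38 UMIs in 3 cells against 131 UMIs in 59 cells. Without the top cell of the gene the EC and macrophage calls remained and the FB call did not, and without the top 5 cells only the EC call remained. The drop takes the same number of cells from 311 ECs or 54 macrophages at 12 weeks as from 1131 or 827 at 0 weeks. It thus tends to lower the ratio, which favours keeping the lower EC call, and it removes all 3 macrophages with the gene. It cannot rank these calls.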

How the results depend on the processing

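No paired analysis was possible because each phase is 1 library and no replicate numbers are shared. Leaving out the top cell, or the top 5 cells, of each member was chosen after seeing the data. The number of members set apart by class was within 1.5 times its value under every setting tried. Counts of called members that moved further were as follows, and the share of all genes called was not recomputed under these settings. In ECs 4 at 2 weeks became 8 with 1 CPM added, and 4 at 12 weeks became 7 without the top 5 cells. In FBs 6 at 2 weeks became 11 with 1 CPM added. In mural cells 2 at 2 weeks became 1 with a margin of 2, with the mean over cells and without the top 5 cells, and 2 at 12 weeks became 5 with raw marker sums and with no margin, 4 at a minimum of 10 UMIs and 1 with a margin of 2. In monocytes 2 at 2 weeks became 5 at a minimum of 10 UMIs and 0 without the top 5 cells, and 1 at 12 weeks became 2 with no margin, without the top cell and with 1 CPM added, 4 at a minimum of 10 UMIs and 0 without the top 5 cells. Of 386 ratios recomputed 328 stayed, 51 moved and 7 turned direction. Those that turned did so without the top 5 cells, at ratios of 0.584 for FB Cxcl10, 0 for FB Ccl11, 0 for macrophage Cxcl10 and 0 for monocyte Ccr2 at 12 weeks and 0 for macrophage Cxcl12 and Ccl5 at 2 weeks, and mural Ccl4 at 2 weeks was 1.30 with the mean over cells. Where the ratio was 0, no UMI of the gene was left in the gate after TAC, so it says nothing of direction in other cells. Monocyte Cxcr4 at 2 weeks had no healthy UMI left without the top 5 cells, so it gave no ratio there. Leaving out 5 cells removes a larger share of a small gate by construction, and for the other changes the cause was not tested. Depth limits the macrophage, monocyte and mural values at 2 and 12 weeks most, where 3 UMIs are worth 14.4 CPM or more.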
